A study of Mus musculus with 6 samples.

Results

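The TRIM genes are the subject here, taken as every gene whose symbol starts with Trim followed by a digit. The table holds 47 such members among 16108 genes, and the members were split by known biology into 12 that interferon can induce and 35 called constitutive for short, some of which are tissue-restricted. RAW264.7 cells, a mouse macrophage-like line, were seeded on acoustic devices, left overnight to attach and then kept for 48 h with the acoustics on (18 V peak to peak, 5 kHz, 3 libraries) or with the acoustics off (3 libraries). Both groups are this 1 line at 1 passage number, on the same kind of device, and no genotype or drug differs between them. Cells on a petri dish, also part of the design, are not analysed here. RNA abundance is given as FPKM, the fragments per kilobase of transcript scaled to the library's total.

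TRIM proteins are built from a RING domain, which some members lack, B-boxes and a coiled coil, and most act as E3 ubiquitin ligases. A varied C-terminal part, often a PRY-SPRY fold, sets what they bind. In macrophages the interferon-inducible members adjust virus sensing and NF-kB signalling, while members such as TRIM28 and TRIM33 act on chromatin and transcription. The question of the comparison is whether the acoustic drive is reflected in these transcripts, and whether the interferon-inducible members move with it.

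Acoustics-on replicate 1 stood apart from the other libraries, at 58.8 on the first principal component of all genes, against 4.66 and 2.54 for acoustics-on replicates 2 and 3 and -23.5 to -19.8 for the acoustics-off libraries. Relative depths, read from the steps between low values, lay between 0.96 and 1.07. All 8 macrophage markers were present (summed level 18596 to 25812 FPKM with acoustics on and 26929 to 29116 FPKM with acoustics off), and 0 of the 8 passed the test, with 7 below 0 and a median log2 difference of -0.45. Lyz2 made up 88.0% to 90.6% of the summed level. Over all genes tested, the median log2 difference was -0.03, 47% were above 0, 1.5% rose and 0.574% fell. Of the 8 markers, 6 were lower in every acoustics-on library than in any acoustics-off library, against 17.7% of all genes. Without acoustics-on replicate 1, 1 of the 8 fell, against 3.08% of all genes. The part of this, or of replicate 1, in the TRIM differences was not tested. Markers of other cells were low, with fibroblast markers summing to 0.757 to 3.08 FPKM with acoustics on and 1.30 to 2.02 FPKM with acoustics off, and Krt8 and Cd79a under 0.12 FPKM in each library. Bulk RNA cannot tell fewer cells of a kind from less RNA per cell. Nothing in the labels ties each library to a culture of its own, so a p-value here speaks of the spread among 6 libraries that may differ only technically.

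TRIM transcripts covered a wide range of levels. Of the 47 members, 33 passed the filter on low values (at least 0.5 FPKM in at least 3 libraries), 9 of them interferon-inducible and 24 constitutive. Their mean level over all libraries ran from 0.620 FPKM for Trim34b to 83.9 FPKM for Trim28, with a median of 7.19 FPKM, and 11 members averaged 10 FPKM or more. Trim28, which encodes the KAP1 corepressor that silences endogenous retroviruses, and Trim25, which encodes the ligase for ISG15 and RIG-I, led the order, ahead of Trim14, Trim8, Trim35 and Trim41. Trim28 ranked above 92.7% of all genes in the table. The ranges over the 6 libraries overlapped for each of the 46 pairs of neighbours in the order of mean level, and within libraries the upper member was the higher one in all 6 for 7 of the 46 pairs, among them Trim28 over Trim25, Trim25 over Trim14 and Trim41 over Trim44. The 14 members below the filter averaged 0.0056 to 0.533 FPKM.

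**Figure D1:**
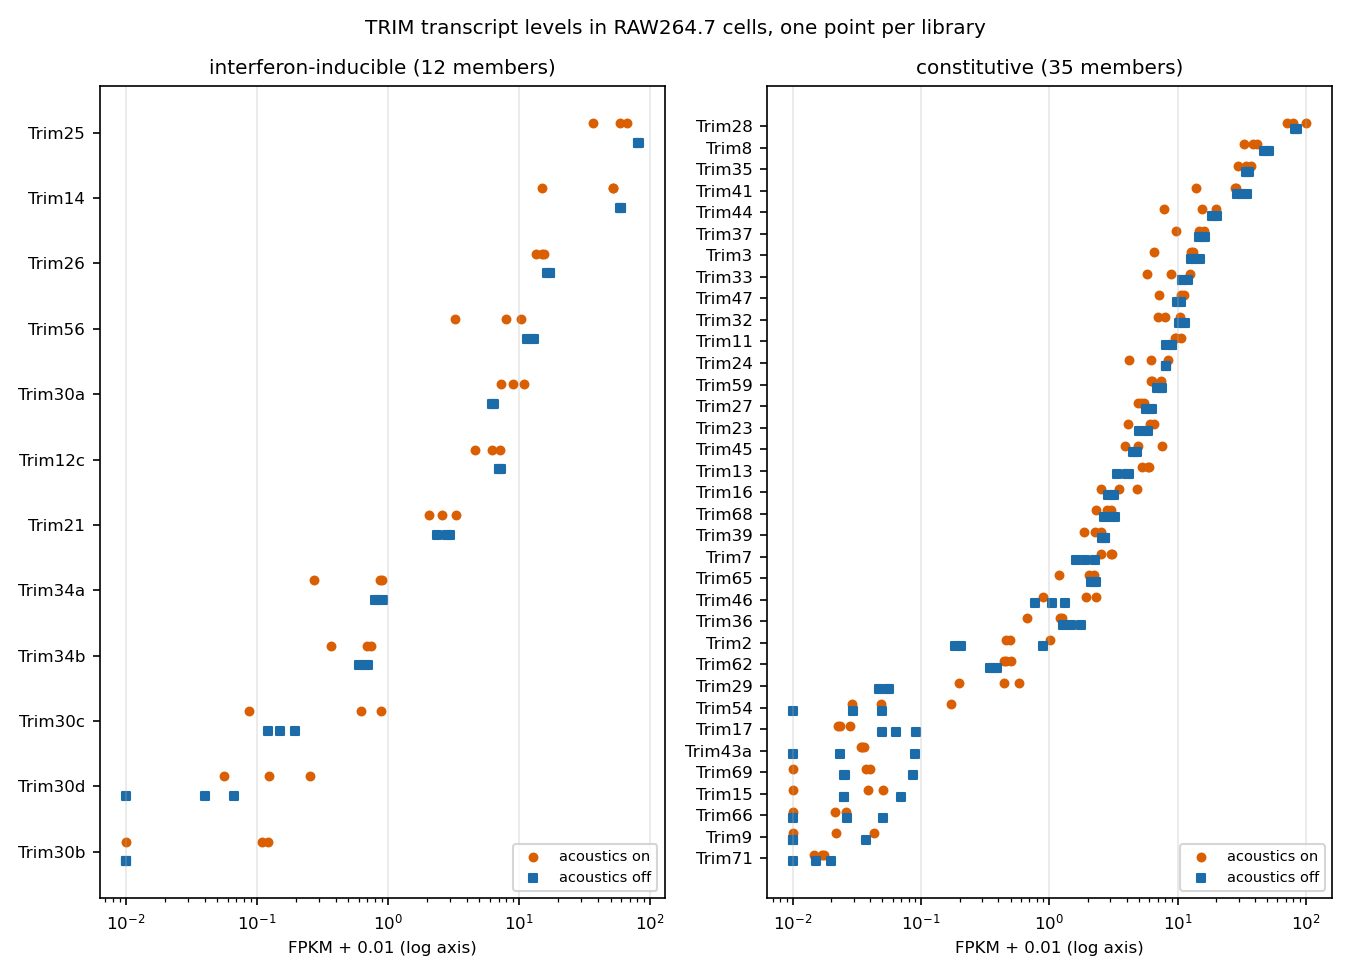
Levels of the 47 TRIM members as FPKM + 0.01 on a log axis, interferon-inducible members on the left and constitutive ones on the right, with 1 point per library (circles, acoustics on; squares, acoustics off). Trim25 and Trim14 lead the interferon-inducible members and Trim28 the constitutive ones, and the acoustics-off points of most members above 1 FPKM lie closer together than the acoustics-on points.

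No TRIM member passed the test over all genes. With acoustics on, 0 of 33 rose and 0 fell (limma on log2(FPKM + 1), Benjamini-Hochberg adjusted p under 0.05), where 1.5% of all 11664 genes tested rose and 0.574% fell. At an unadjusted p under 0.05, 3 were higher (Trim13, Trim7 and Trim30a, against 10.5% of all genes) and 2 were lower (Trim8 and Trim25, against 9.16%). The authors' deposited table called 2 of the 40 members with an adjusted p higher, Trim13 and Trim29, against 5.08% of its genes, and 0 lower, against 2.49%. Log2 differences, acoustics on minus acoustics off, ran from -0.82 to 0.47, and the smallest adjusted p was 0.136. The median was -0.18 over the members and -0.03 over all genes, and 7 of 33 members were above 0, against 47% of all genes.

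The members' median on the log2 scale was -0.35, -0.16 and 0.01 in the acoustics-on libraries, in order of replicate number, relative to the mean of the acoustics-off libraries, while the median of all genes was -0.04, -0.0012 and -0.0057. Replicate 1 was below both other acoustics-on libraries for 25 of 33 members, against 44.7% of all genes tested. Without it the median was -0.08 over the members and -0.01 over all genes, and 11 of 33 members were above 0, against 48.7%. In that fit 1 member rose, Trim30a, against 4.75% of all genes, and 1 fell, Trim25, against 3.08%. Within the acoustics-on group the median coefficient of variation of a member was 23.6%, and within the acoustics-off group it was 5.24%. Counting alone would give 0.829% to 15.1% for these members, from the authors' deposited mean normalised counts.

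**Figure D2:**
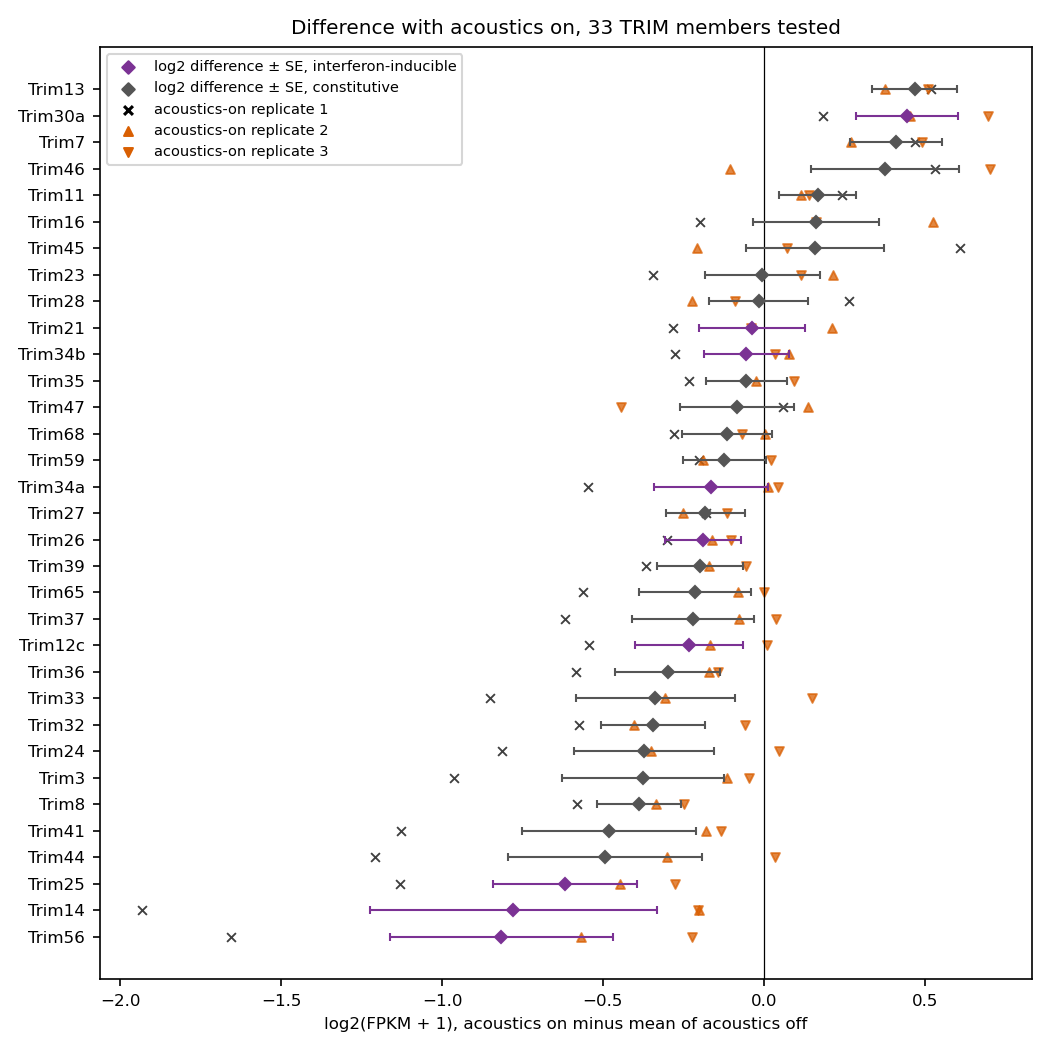
Log2(FPKM + 1) difference, acoustics on minus the mean of acoustics off, for the 33 TRIM members tested, in order of the difference. Diamonds with bars give the estimate ± SE, crosses acoustics-on replicate 1 and triangles replicates 2 and 3, and for Trim14, Trim56, Trim25, Trim44 and Trim41 the cross lies far to the left of both triangles.

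The relation of the differences to transcript length varied among the libraries. Across the 33 members, the rank correlation between the length of the longest transcript and the difference from the mean of the acoustics-off libraries was -0.34, -0.42 and -0.01 in the acoustics-on libraries, taken in the same order, and across 11549 genes it was -0.51, -0.36 and 0.07. The acoustics-off libraries, set against the same mean, gave 0.13, -0.16 and -0.11 for the members and 0.20, -0.27 and 0.05 for all genes. The members of a library share its depth and preparation, so these are descriptions. The median longest transcript was 3740 bases for the members and 3127 bases for all genes. With a length and GC trend divided out of each library, the members' medians were -0.31, -0.04 and -0.01, the median log2 difference was -0.09 over the members and -0.01 over all genes, and replicate 1 was still below both other acoustics-on libraries for 24 of 33 members, against 47.1% of all genes. In that fit Trim30a was the 1 of 34 members that rose, against 2.96% of all genes, and 0 fell, against 2.39%.

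**Figure D3:**
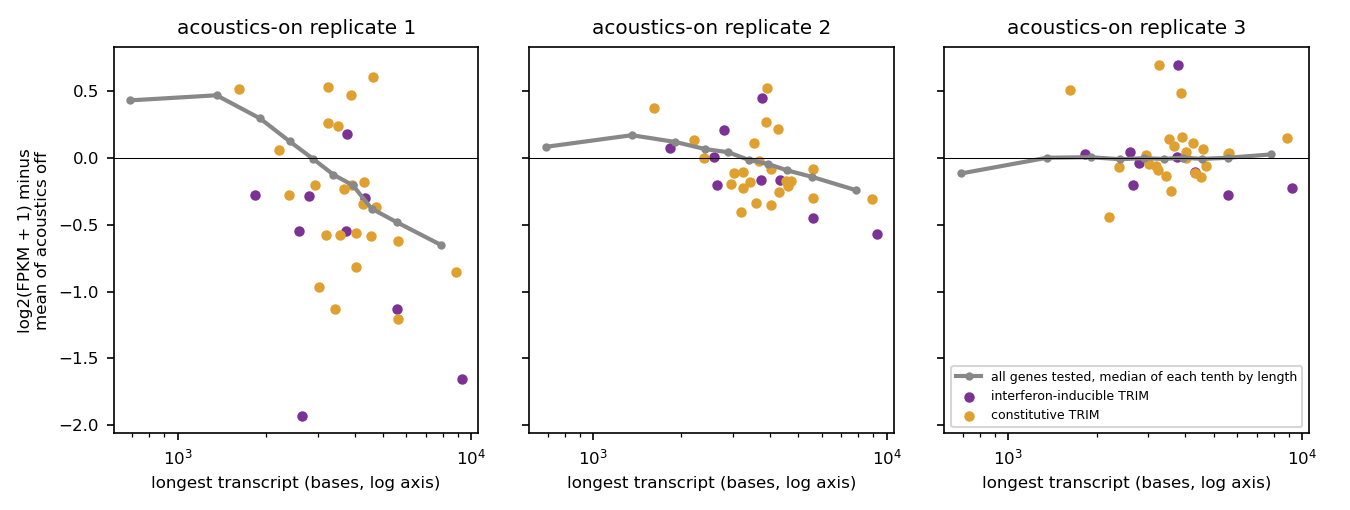
Difference in log2(FPKM + 1) from the acoustics-off mean against the length of the longest transcript (log axis), with a panel for each acoustics-on library, purple points for interferon-inducible and yellow points for constitutive TRIM members, and a grey line for the median of all genes in bins of length. The grey line falls with length in replicate 1 and less so in replicate 2, and the TRIM members scatter around and below it.

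Promoter windows are shown for 5 interferon-inducible members, because they show the core of the interferon-stimulated response element, the site that ISGF3 binds, where it occurs and, in Trim25, where it does not. RefSeq windows (GRCm38.p6, 250 bases before to 50 after the start) were matched for 36 of 47 members. The core was searched on both strands as GAAA, then NN, then GAAA, and overlapping matches were counted. It occurred in 6 of 11 interferon-inducible members (Trim12c, Trim21, Trim26, Trim30a, Trim30d and Trim34a) and in 1 of 25 constitutive members, Trim2, against 3.99% of the 27025 genes in the promoter table. Capitals mark the matches, and each window is written 5′ to 3′ on the strand of its gene.
Trim30a (chr7:104465144-104465443, minus strand): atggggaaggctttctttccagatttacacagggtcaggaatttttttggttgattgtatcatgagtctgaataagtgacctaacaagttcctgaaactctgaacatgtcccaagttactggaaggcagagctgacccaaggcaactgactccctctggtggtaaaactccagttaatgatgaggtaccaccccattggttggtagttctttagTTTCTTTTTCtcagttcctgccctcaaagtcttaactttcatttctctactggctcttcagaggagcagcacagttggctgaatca
Trim12c (chr7:104353300-104353599, minus strand): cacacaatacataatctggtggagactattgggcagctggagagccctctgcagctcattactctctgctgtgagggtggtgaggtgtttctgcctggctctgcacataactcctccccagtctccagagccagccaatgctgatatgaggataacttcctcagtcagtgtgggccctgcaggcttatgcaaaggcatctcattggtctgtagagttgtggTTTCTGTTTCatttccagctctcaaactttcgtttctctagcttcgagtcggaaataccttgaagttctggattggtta
Trim21 (chr7:102565433-102565732, minus strand): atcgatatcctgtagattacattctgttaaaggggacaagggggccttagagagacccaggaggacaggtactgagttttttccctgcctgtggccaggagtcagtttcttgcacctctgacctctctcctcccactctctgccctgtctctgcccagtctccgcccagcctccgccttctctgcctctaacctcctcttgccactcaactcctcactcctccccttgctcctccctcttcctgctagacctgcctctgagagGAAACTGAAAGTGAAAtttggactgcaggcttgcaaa
Trim26 (chr17:36836896-36837195, plus strand): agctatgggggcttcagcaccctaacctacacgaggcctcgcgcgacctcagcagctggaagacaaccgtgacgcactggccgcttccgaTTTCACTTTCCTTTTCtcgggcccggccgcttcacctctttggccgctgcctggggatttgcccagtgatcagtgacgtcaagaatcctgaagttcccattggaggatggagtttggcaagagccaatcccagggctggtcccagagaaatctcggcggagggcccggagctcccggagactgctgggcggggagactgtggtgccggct
Trim25 (chr11:88999153-88999452, plus strand): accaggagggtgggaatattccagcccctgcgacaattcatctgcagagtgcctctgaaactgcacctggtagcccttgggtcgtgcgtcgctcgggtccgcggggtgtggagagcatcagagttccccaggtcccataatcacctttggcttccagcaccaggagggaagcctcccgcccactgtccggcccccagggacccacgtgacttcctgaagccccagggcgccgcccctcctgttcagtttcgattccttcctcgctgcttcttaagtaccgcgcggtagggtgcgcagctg
The match in the Trim30a window begins 36 bases upstream of the start and that of Trim12c 29 bases upstream. The first of a pair of overlapping matches in Trim26 begins 160 bases upstream, and the first of a pair in Trim21 begins 13 bases downstream. A match on the other strand appears as the reverse complement of these letters. Another RefSeq window of Trim30a, not shown, also holds a match. The Trim25 window holds no match, which says only that these letters are not in it.

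Among the interferon-inducible members tested, Trim30a was the 1 with acoustics-on values above all acoustics-off values. Trim30a (chromosome 7, 104409025 to 104465193, minus strand, GRCm38) encodes a mouse TRIM protein that restrains NF-kB signalling by removing TAB2 and TAB3. It had 7.31, 9.03 and 10.8 FPKM in the acoustics-on libraries, against 6.28, 6.26 and 6.41 FPKM in the acoustics-off libraries. The groups did not overlap, with replicate 3 the highest and replicate 1 the lowest of the acoustics-on libraries. The log2 difference was 0.44 (SE 0.16, limma, adjusted p = 0.203). Without acoustics-on replicate 1 it was 0.57 (SE 0.10, limma, adjusted p = 0.0281), and with the length and GC trend divided out it was 0.51 (limma, adjusted p = 0.0470). In the authors' deposited table the log2 fold change was 0.52 (adjusted p = 0.0905 there). Of the 31-base words in the longest Trim30a transcript, 11.8% also occur in transcripts of other genes, mostly Trim30d, so part of its reads can be shared.

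The closest copies of Trim30a were near the detection limit. Trim30c was at 0.0774, 0.883 and 0.609 FPKM with acoustics on and at 0.186, 0.141 and 0.111 FPKM with acoustics off. Trim30d was at 0.0462, 0.114 and 0.247 FPKM with acoustics on and at 0.057, 0.030 and 0 FPKM with acoustics off. Trim30b was listed at 0, 0.111 and 0.101 FPKM with acoustics on and at 0 in the 3 acoustics-off libraries. Acoustics-on replicates 2 and 3 were above every acoustics-off library for these copies, and replicate 1 lay among or below the acoustics-off libraries. With replicate 1 set aside, 5 of the 14 members below the filter were separate in this way, against 14.6% of the 4444 genes below it. These copies were below the filter, and with no filter the limma adjusted p was 0.368 for Trim30c, 0.338 for Trim30d and 0.328 for Trim30b. Shared words made up 12.27% of the longest Trim30d transcript (9.13% with Trim30a), 5.69% for Trim30c and 4.53% for Trim30b. In acoustics-on replicates 2 and 3, Trim30d had 12.1 and 26.1 normalised reads, beside 1440 and 1731 for Trim30a. Whether reads of Trim30a or other genes were placed on these copies was not tested.

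Trim25, Trim56, Trim14 and Trim26 were lower in every acoustics-on library than in any acoustics-off library. Over the 33 members, groups were separate in that direction for 9, against 17.7% of all genes, and in the other direction for 4, against 17.1%. Without acoustics-on replicate 1 these were 10, against 23.3% of all genes, and 6, against 22.4%. Trim25 (chromosome 11, 88999376 to 89020293, plus strand) had 36.7, 59.4 and 67.1 FPKM with acoustics on, against 81.3, 82.5 and 80.3 FPKM with acoustics off. Its log2 difference was -0.62 (SE 0.22, limma, adjusted p = 0.207), and without acoustics-on replicate 1 it was -0.36 (SE 0.08, limma, adjusted p = 0.0469). With the length and GC trend divided out it was -0.36 and did not pass (limma, adjusted p = 0.129). Its SD was 15.8 FPKM among the acoustics-on libraries and 1.08 FPKM among the acoustics-off libraries (n = 3 each).

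Trim56 (chromosome 5, 137105644 to 137116209, minus strand), whose protein takes part in antiviral sensing, had 3.22, 7.98 and 10.4 FPKM with acoustics on, against 13.0, 11.5 and 12.4 FPKM with acoustics off. Its longest transcript has 9279 bases, the longest of the members tested. The log2 difference was -0.82 (SE 0.35, limma, adjusted p = 0.254), -0.40 without acoustics-on replicate 1 and -0.45 with the length and GC trend divided out. Trim14 (chromosome 4, 46493781 to 46536141, minus strand), which has no RING domain and serves as an adaptor of MAVS signalling, had 14.96, 52.0 and 51.9 FPKM with acoustics on, against 60.5, 59.5 and 59.7 FPKM with acoustics off. Replicate 1 alone set most of that gap, since the log2 difference was -0.78 (SE 0.45, limma, adjusted p = 0.349) with it and -0.20 (SE 0.07, limma, adjusted p = 0.112) without it. Exons of genes on the other strand, Nans among them, overlap 38.04% of the Trim14 exon bases, and the use of strand in counting is not given in the sources used here. Trim14 also had 26.2 normalised reads per FPKM, against 58.1 or more in the other members tested. Trim26, whose protein limits interferon production through IRF3, had 13.5, 14.97 and 15.7 FPKM with acoustics on, against 17.1, 16.4 and 17.2 FPKM with acoustics off (log2 difference -0.19, SE 0.12, limma, adjusted p = 0.380).

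The other interferon-inducible members overlapped between groups. Trim21, the cytosolic antibody receptor gene, had 2.04, 3.29 and 2.60 FPKM with acoustics on, against 2.38, 2.80 and 2.95 FPKM with acoustics off (log2 difference -0.04, SE 0.16, limma, adjusted p = 0.903). Trim12c, a mouse relative of the retroviral restriction factor TRIM5, had 4.59, 6.26 and 7.20 FPKM with acoustics on, against 7.10, 7.31 and 7.02 FPKM with acoustics off (log2 difference -0.23, SE 0.17, limma, adjusted p = 0.436). Both show replicate 1 as the lowest acoustics-on library. The paralogs Trim34a and Trim34b were low. Trim34a had 0.262, 0.857 and 0.897 FPKM with acoustics on, against 0.788, 0.906 and 0.831 FPKM with acoustics off, and Trim34b had 0.360, 0.738 and 0.684 FPKM with acoustics on, against 0.589, 0.655 and 0.693 FPKM with acoustics off. The groups overlapped for both (log2 differences -0.16 and -0.05). Of the 31-base words of the longest transcript, 49.8% are shared with other genes for Trim34a, 71.0% for Trim34b and 47.4% for Trim12c, so reads of these copies cannot be placed with certainty. The median log2 difference over the 9 interferon-inducible members tested was -0.19 with 8 of 9 below 0. Over the 24 constitutive members it was -0.15 with 18 of 24 below 0, and over all genes it was -0.03 with 47% above 0. Without acoustics-on replicate 1 the medians of both classes were -0.08. With the length and GC trend divided out they were -0.17 for the interferon-inducible and -0.04 for the constitutive members. The median over all genes was -0.01 in each of these fits.

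Genes that work with the interferon-inducible TRIM proteins give a side by side view. Of 19 genes of ISG15 conjugation and nucleic acid sensing, 2 rose and 0 fell, against 1.5% and 0.574% of all genes. The ubiquitin-like modifier gene Isg15, whose product TRIM25 attaches, had 25.6, 32.1 and 37.7 FPKM with acoustics on, against 3.89, 3.47 and 3.06 FPKM with acoustics off (log2 difference 2.86, SE 0.17, limma, adjusted p = 0.00194). Usp18, which encodes the protease that removes ISG15, had 22.3, 18.0 and 19.6 FPKM with acoustics on, against 8.25, 9.06 and 8.81 FPKM with acoustics off (log2 difference 1.11, SE 0.13, limma, adjusted p = 0.0105). Both were higher in all 3 acoustics-on libraries, replicate 1 included. The list's median log2 difference was -0.12, and 8 of 19 were above 0, against -0.03 and 47% for all genes. Without acoustics-on replicate 1 the list's median was 0.028, and with the length and GC trend divided out it was 0.036. Of 11 interferon receptor and ISGF3 genes, 1 rose and 0 fell, with a median of -0.06 that was 0.16 without acoustics-on replicate 1 and 0.11 with the trend divided out. The riser was the interferon regulatory factor gene Irf7, with 70.9, 59.4 and 78.7 FPKM with acoustics on, against 13.1, 15.7 and 13.0 FPKM with acoustics off (log2 difference 2.24, SE 0.15, limma, adjusted p = 0.00196). The difference between these genes and the TRIM members was not tested. Without acoustics-on replicate 1, Isg15, Usp18 and Irf7 still rose, and Ube2l6, the E2 enzyme gene for ISG15, also rose (log2 difference 0.77). The interferon receptor gene Ifnar1 fell by 0.45 on the log2 scale in that fit (limma, adjusted p = 0.0309). More of all genes passed there as well, with 4.75% higher and 3.08% lower.

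**Figure D4:**
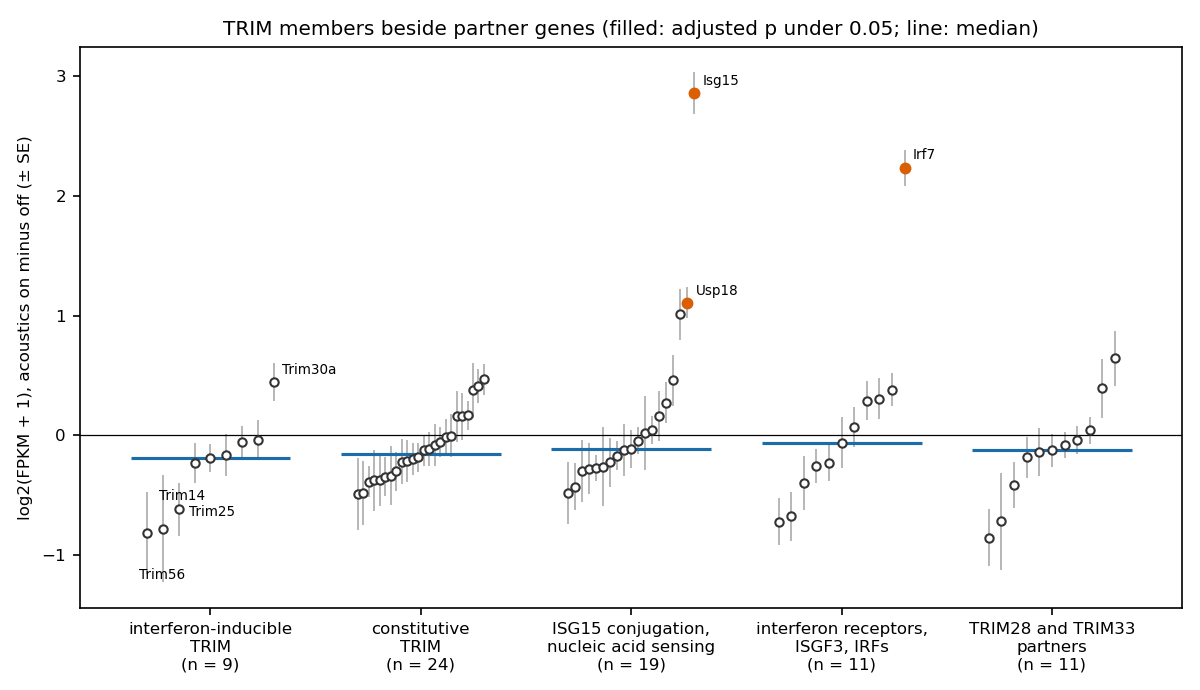
Log2(FPKM + 1) difference, acoustics on minus off, with SE bars, for the interferon-inducible and constitutive TRIM members and 3 lists of partner genes, with filled points for genes that passed and a blue line at each list's median. Isg15, Usp18 and Irf7 lie at 2.86, 1.11 and 2.24, while the TRIM members lie between -0.82 and 0.47.

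Of 4 TRIM genes that carry other names, Pml and Mid1 were tested, and Mefv and Mid2 were below the filter. Of the 2 tested, 0 passed, where 1.5% of all genes rose and 0.574% fell.

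Trim28, Trim8, Trim35, Trim41 and Trim44 were the constitutive members with the highest mean levels. Trim28 (chromosome 7, 12999114 to 13031035, plus strand) had 101.0, 71.7 and 78.8 FPKM with acoustics on, against 83.8, 85.0 and 82.9 FPKM with acoustics off. The acoustics-on values lay on both sides of the acoustics-off ones, and replicate 1 was the highest library. The log2 difference was -0.02 (SE 0.15, limma, adjusted p = 0.956). The other PHD-bromodomain members tested, Trim33, which takes part in SMAD signalling, and Trim24, a nuclear receptor cofactor, had log2 differences of -0.34 and -0.37 that did not pass, and with the length and GC trend divided out that of Trim33 was 0.037. Of 11 partners of TRIM28 and TRIM33, such as Setdb1 and Smad4, 0 rose and 0 fell, against 1.5% and 0.574% of all genes. Without acoustics-on replicate 1 the counts were also 0, against 4.75% and 3.08% of all genes. Groups were separate upward for 1 of the 11 partners and downward for 2, against 17.1% and 17.7% of all genes. The partners' median was -0.12, and 0.015 with the length and GC trend divided out.

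Trim8, a RING ligase that acts on TNF signalling through TAK1, had 32.8, 39.1 and 41.5 FPKM with acoustics on, against 51.7, 49.9 and 47.0 FPKM with acoustics off. The groups did not overlap (log2 difference -0.39, SE 0.13, limma, adjusted p = 0.186), and without acoustics-on replicate 1 the difference was -0.29 (limma, adjusted p = 0.0721). Trim35, a PRY-SPRY ligase, had 29.6, 34.4 and 37.4 FPKM with acoustics on, against 34.6, 36.1 and 34.3 FPKM with acoustics off, and its groups overlapped (log2 difference -0.05, SE 0.13, limma, adjusted p = 0.808). Trim41, a PRY-SPRY ligase, had 13.95, 27.9 and 28.8 FPKM with acoustics on, against 34.7, 28.9 and 31.8 FPKM with acoustics off (log2 difference -0.48, SE 0.27, limma, adjusted p = 0.343). Trim44, which lacks a RING domain, had 7.81, 15.5 and 19.9 FPKM with acoustics on, against 20.5, 18.5 and 19.3 FPKM with acoustics off (log2 difference -0.49, SE 0.30, limma, adjusted p = 0.374). In both Trim41 and Trim44 the value of acoustics-on replicate 1 was the lowest by far, and without that library their differences were -0.16 and -0.13.

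Trim13 and Trim7 had the largest positive differences among the constitutive members. Trim13 (chromosome 14, 61598247 to 61605946, plus strand) encodes a ligase anchored in the endoplasmic reticulum membrane. It had 5.95, 5.29 and 5.90 FPKM with acoustics on, against 4.15, 3.39 and 4.04 FPKM with acoustics off. The groups did not overlap and replicate 1 was not apart (log2 difference 0.47, SE 0.13, limma, adjusted p = 0.136). The authors' deposited table gave it a log2 fold change of 0.57 with an adjusted p of 0.0490. Its longest transcript, with 1619 bases, is the shortest of the members tested, and with the length and GC trend divided out the difference was 0.30 (limma, adjusted p = 0.221). Of its 31-base words, 29.3% are shared, all with the predicted gene Gm9359. Trim7, a PRY-SPRY ligase that binds glycogenin, had 3.02, 2.50 and 3.08 FPKM with acoustics on, against 1.61, 1.89 and 2.24 FPKM with acoustics off (log2 difference 0.41, SE 0.14, limma, adjusted p = 0.196). Its difference was 0.49 with the length and GC trend divided out and did not pass there either (limma, adjusted p = 0.0943).

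Members were grouped by the C-terminal part, except that Trim14, Trim16, Trim29 and Trim44, without a RING domain, formed a class of their own. Their C-terminal parts were not counted in the other classes. Of the PRY-SPRY or unclassified members tested, 3 of 16 were above 0, against 47% of all genes. Above 0 were also 0 of 3 PHD-bromodomain members, 0 of 2 NHL members and 0 of 2 with no C-terminal domain, and 1 of 3 without a RING domain, 1 of 2 transmembrane and 1 of 2 COS members. The single filamin-domain member, Trim45, was above 0, and the single ARF member, Trim23, and MATH member, Trim37, were below 0. No difference between these classes was tested. The other tested constitutive members, apart from those given above, had means of 1.04 to 15.6 FPKM with acoustics off and log2 differences between -0.38 and 0.38.

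Among the members below the filter, Trim29 stood out, and it is named here after its value was seen. Trim29 (chromosome 9, 43310848 to 43336115, plus strand) encodes a TRIM protein without a RING domain that is known from epithelia and from alveolar macrophages. It had 0.573, 0.189 and 0.431 FPKM with acoustics on, against 0.0453, 0.0459 and 0.0371 FPKM with acoustics off. Scaled to the authors' deposited mean normalised count, that is about 64.3, 21.2 and 48.4 reads with acoustics on and 5.08, 5.15 and 4.17 reads with acoustics off, so the groups did not overlap. The authors' deposited table gave a log2 fold change of 3.22 (SE 0.67, adjusted p = 9.13e-05). With no filter, limma gave a difference of 0.41 on the log2(FPKM + 1) scale, which shrinks low genes, with an adjusted p of 0.136. Trim62, a ligase of the CARD9 pathway, was also higher in all acoustics-on libraries, at 0.489, 0.448 and 0.430 FPKM, against 0.356, 0.337 and 0.381 FPKM with acoustics off. Trim17 was lower in all acoustics-on libraries, at 0.0132, 0.0125 and 0.018 FPKM, against 0.0394, 0.0533 and 0.0808 FPKM with acoustics off. Among genes above the filter, groups were separate upward for 17.1% and downward for 17.7%. The share among genes below the filter, with all libraries kept, was not counted. Trim2 had 0.452, 0.483 and 1.01 FPKM with acoustics on, against 0.196, 0.175 and 0.882 FPKM with acoustics off, and its groups overlapped through acoustics-off replicate 3. The remaining 7, Trim54, Trim43a, Trim69, Trim15, Trim66, Trim9 and Trim71, averaged under 0.05 FPKM.

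**Figure D5:**
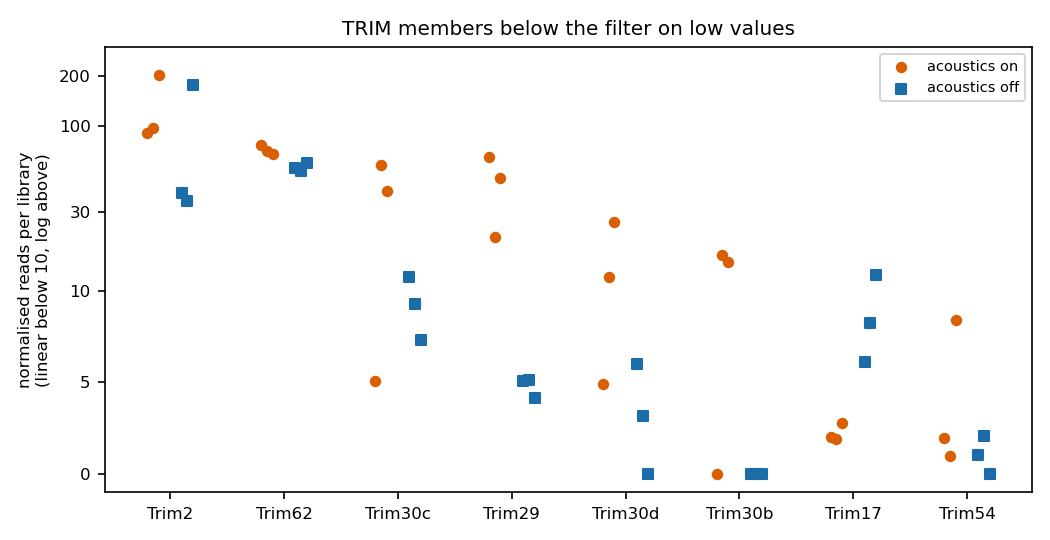
Normalised reads per library (FPKM scaled to the authors' deposited mean normalised count; axis linear below 10 and log above) for the 8 members with the highest means below the filter, with circles for acoustics on and squares for acoustics off. Trim29 lies between 21.2 and 64.3 reads with acoustics on and between 4.17 and 5.15 reads with acoustics off.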

How the data were processed

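RNA-seq was read from 6 libraries. The submitters' processing notes name DESeq2 1.38.2, Salmon 1.4.0, STAR 2.7.11 and Trim Galore 0.6.8 and the build GRCm38, without saying which step used which; no settings are known here. The labels name both a ribosomal RNA depletion kit and polyA RNA. The authors deposited FPKM per gene and library, with no counts. They also deposited a comparison table with a mean signal (normalised counts), log2 fold changes, a score (the Wald statistic) and p-values; its missing adjusted p-values were left missing. FPKM scaled per gene to that mean count gave whole reads (within 0.05, at the best relative depth) for 59.3% to 68.5% of low values, too few to recover counts, so no count test was run and precision rests on FPKM.

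Genes with at least 0.5 FPKM in at least 3 libraries (11664) were tested with limma 3.58.1 in R 4.3.3 on log2(FPKM + 1), with a trended robust prior, no replicate term and Benjamini-Hochberg adjustment over all genes at 0.05. This scale understates changes of low genes. The code was tested on simulated data. Library weights were estimated gene by gene, since the default estimate did not converge. The members and lists were chosen with earlier results of these data known, so no list test was run. Values per library are given for members past the threshold, interferon-inducible members above the filter, and the 5 constitutive members with the highest means and the 5 with the largest differences. The interferon-inducible list was Trim5, Trim6, Trim12a, Trim12c, Trim14, Trim21, Trim25, Trim26, Trim30a to Trim30d, Trim34a, Trim34b and Trim56; Trim5, Trim6 and Trim12a were not analysed here. Coordinates, lengths and 31-base words were taken by symbol from the GENCODE M21 annotation of GRCm38, with a value for 15943 genes. The length and GC correction was a loess trend (span 0.5) per library over 9942 protein-coding genes.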

Additional observations from a re-analysis of the deposited data

How the results depend on the processing

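The members' call count of 0 changed in few settings. Members called higher and lower were 1 and 1 without acoustics-on replicate 1, 1 and 0 with the length and GC trend divided out, 2 and 3 with library weights (0.0912 for acoustics-on replicate 1), and 2 and 0 in the authors' deposited table; with a library left out in turn each count was 0 to 1. Dividing out the trend and leaving out acoustics-on replicate 1, chosen after seeing the data, gave 1 and 0. With library weights the called members were Trim30a and Trim16 (higher), and Trim25, Trim56 and Trim8 (lower). Acoustics-on replicates 2 and 3 had weights of 1.70 and 0.339, so replicate 2 counted most in that group. Trim16 had 2.52, 4.81 and 3.52 FPKM with acoustics on and 2.85, 3.08 and 3.19 FPKM with acoustics off. Its groups overlapped, while those of Trim30a, Trim25, Trim56 and Trim8 did not. Over all genes, 175 were higher and 67 lower, and 14 to 554 and 5 to 359 with a library left out. The lowest counts, 14 and 5, came without acoustics-off replicate 2, and the highest without acoustics-on replicate 1. Counts were 116 and 34 with no filter, 346 and 279 with the trend divided out, 1098 and 784 with library weights, 767 and 557 with the trend divided out and acoustics-on replicate 1 left out, and 737 and 361 in the authors' deposited table; 111 were lower under quantile normalization. The cause of these shifts was not tested. The interferon-inducible median was -0.27 to -0.08 with a library left out and -0.62 without the chromosome 7 cluster, a list of 5 members. The constitutive median was -0.21 to -0.08 with a library left out, -0.023 with no filter, where 35 members enter, and -0.028 with the trend divided out and acoustics-on replicate 1 left out.

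Correlations between the deviations of same-numbered libraries were -0.07, -0.02 and -0.0039, within the -0.12 to 0.12 of libraries with different numbers. With 3 libraries per group these values cannot show whether the libraries were made in pairs. With the replicate block 0 members were called, as without it, and over all genes 133 were higher and 46 lower; with the block and the trend divided out 116 genes were higher and 41 lower, and Trim30a, called with the trend divided out alone, was not called (0.51, limma, adjusted p = 0.126).

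Over 18 limma alternatives, 12 of 33 members turned sign in at least 1, and 21 did not. Turned were Trim16, Trim23, Trim45 and Trim47, those given below, and also Trim33 (-0.58 to 0.069), Trim37 (-0.35 to 0.075) and Trim65 (-0.32 to 0.020), which were at -0.34, -0.22 and -0.21 in the fit reported. Trim21 was at 0.0086 under quantile normalization, 0.13 with library weights, 0.052 with the trend divided out and acoustics-on replicate 1 left out, and -0.16 to 0.086 with a library left out. Trim34a was at -0.27 to 0.028 with a library left out. Trim34b was at -0.12 to 0.056 with a library left out, 0.050 with library weights and 0.016 with the trend divided out and acoustics-on replicate 1 left out. Trim28 was at -0.16 to 0.087 with a library left out, and 0.014 with the trend divided out, also with the replicate block. Trim35 was at -0.13 to 0.035 with a library left out, 0.042 with the trend divided out, also with the replicate block, and 0.10 with the trend divided out and acoustics-on replicate 1 left out. Depth limits Trim17, Trim29, Trim30b, Trim30c and Trim30d, while Trim2 and Trim62, also below the filter, held 34.9 to 202.2 and 52.8 to 76.6 normalised reads per library.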
